A study of Mus musculus with 20 samples.

Results

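The 78 genes described here encode nuclear subunits of the 5 complexes of oxidative phosphorylation in the mouse. They were chosen by symbol, as probes annotated to a single gene whose symbol begins with Ndufa, Ndufb, Ndufc, Ndufs or Ndufv and a number, is one of Sdha to Sdhd, begins with Uqcr, begins with Cox4 to Cox8 and a further letter a to c or digit, or begins with Atp5. The array held 80 such probes among its 22575, for 78 of the 16504 genes named singly. Complex I had 34 genes (35 probes), complex II 4 genes, complex III 8 genes, complex IV 15 genes and complex V 17 genes (18 probes). Ndufs6 and Atp5pb each had 2 probes, and all 80 probes had a value on every array. By this rule the subunits Cox4i1, Cyc1 and Ndufab1 fall outside the 78, and Ndufa4, Ndufa4l2 and Cox7a2l fall inside although their place in a complex differs from their name or is disputed.

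The respiratory chain sits in the inner mitochondrial membrane. NADH dehydrogenase (complex I) and succinate dehydrogenase (complex II) pass electrons to ubiquinone, the cytochrome bc1 complex (III) passes them to cytochrome c, and cytochrome c oxidase (IV) gives them to oxygen. Complexes I, III and IV pump protons outward, and the ATP synthase (V) uses their return to make ATP, which in the cortex is spent largely on ion pumping in neurons.

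RNA was compared between cocaine and saline on 20 two-colour Agilent arrays, 5 in each of 4 groups. In every group the dams were Swiss Webster mice that received 20 mg/kg cocaine, or saline alone, subcutaneously 2 times daily from embryonic day 8 to day 18, with control dams pair-fed to treated ones. The fetal frontal and fetal occipital groups held cerebral wall taken on embryonic day 18, 1 h after the last injection, with tissue of 2 fetuses pooled in each channel. The adult frontal and adult occipital groups held cortex of such offspring on postnatal day 30. Each array carried 5 µg of cocaine RNA in channel 1 against 5 µg of saline RNA in channel 2, each with its own Alexa dye coupled through Genesphere 3DNA, and each array of a region drew on litters of its own, per the labels. No dye swap is labelled, so dye and treatment cannot be told apart for a probe, and the direction cocaine over saline is likely rather than stated. Fetal frontal replicate 1 lists both dyes for channel 1. In the titles 2 fetal occipital arrays carry the number 1, and they are distinguished here as replicates 1 and 1b. Values are log2 ratios with the median of each array set to 0, so that a value of 1 is a doubling relative to the median probe. Errors are standard errors (SE) of the model over n = 5 arrays a group, and "higher" or "lower" means a limma p-value under 0.05 after Benjamini-Hochberg adjustment over all 22567 probes tested. Because the tissue is bulk cortex, a change in the share of a cell type and a change in RNA per cell cannot be told apart.

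On all arrays the ratio of a probe rose with a score of its brightness. Intensities were not analysed here, so the score was made from the ratios themselves. It rests on the premise that a dim spot has 2 signals of small whole numbers, with few quotients possible. The score was not checked against intensities, and "brightness" here and below means this score. The Spearman correlation of ratio with this score, a description over probes of 1 array, had a median of 0.708 over the adult frontal arrays, 0.651 over the adult occipital, 0.593 over the fetal frontal and 0.407 over the fetal occipital ones. It was lowest in fetal occipital replicate 1, at 0.0907. A loess curve in brightness accounted for 1.73% to 56.7% of the variance of an array and a curve in position on the array for 2.68% to 44.9%. The 80 probes had a median brightness percentile of 78.3, so the counts are set beside all probes and then beside probes of like brightness.

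In adult cortex most of these genes stood above the array median. In adult frontal cortex 58 of the 80 probes were higher and 3 lower, where 26.8% of all probes tested were higher and 29.4% lower. In adult occipital cortex 51 were higher and 2 lower, beside 24.1% higher and 24.1% lower over all probes. Fetal frontal cortex had 30 higher and 1 lower against a background of 18.7% and 18.4%. Fetal occipital cortex had 14 higher and 1 lower against 10.5% and 14.2%. The median ratio of the 80 probes was 1.01 in adult frontal, 0.96 in adult occipital, 0.63 in fetal frontal and 0.15 in fetal occipital cortex, where all probes had medians from -0.04 to 0.01. Across groups 12 probes were higher in all 4, 16 in 3 of them, 21 in 2, 15 in 1 and 16 in none. How all probes on the array divided in this way was not counted, so these overlaps have no background to be set beside. The 12 were those of Ndufa10, Ndufa11, Ndufb8, Ndufc2, Ndufs3, Ndufv2, Sdhc, Sdhd, Uqcrc2, Cox7a2l, Cox8a and Atp5c1. Only Cox7b2, Cox6b2, Cox7a1 and Ndufs4 were lower in any group. No member probe was higher in one group and lower in another, a count not made for all probes. A call in all 4 groups depends on the 14 fetal occipital calls, which fell to 0 with only that group's arrays in the fit. Leaving out 1 fetal occipital array at a time, they ran from 4 to 15.

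**Figure D1:**
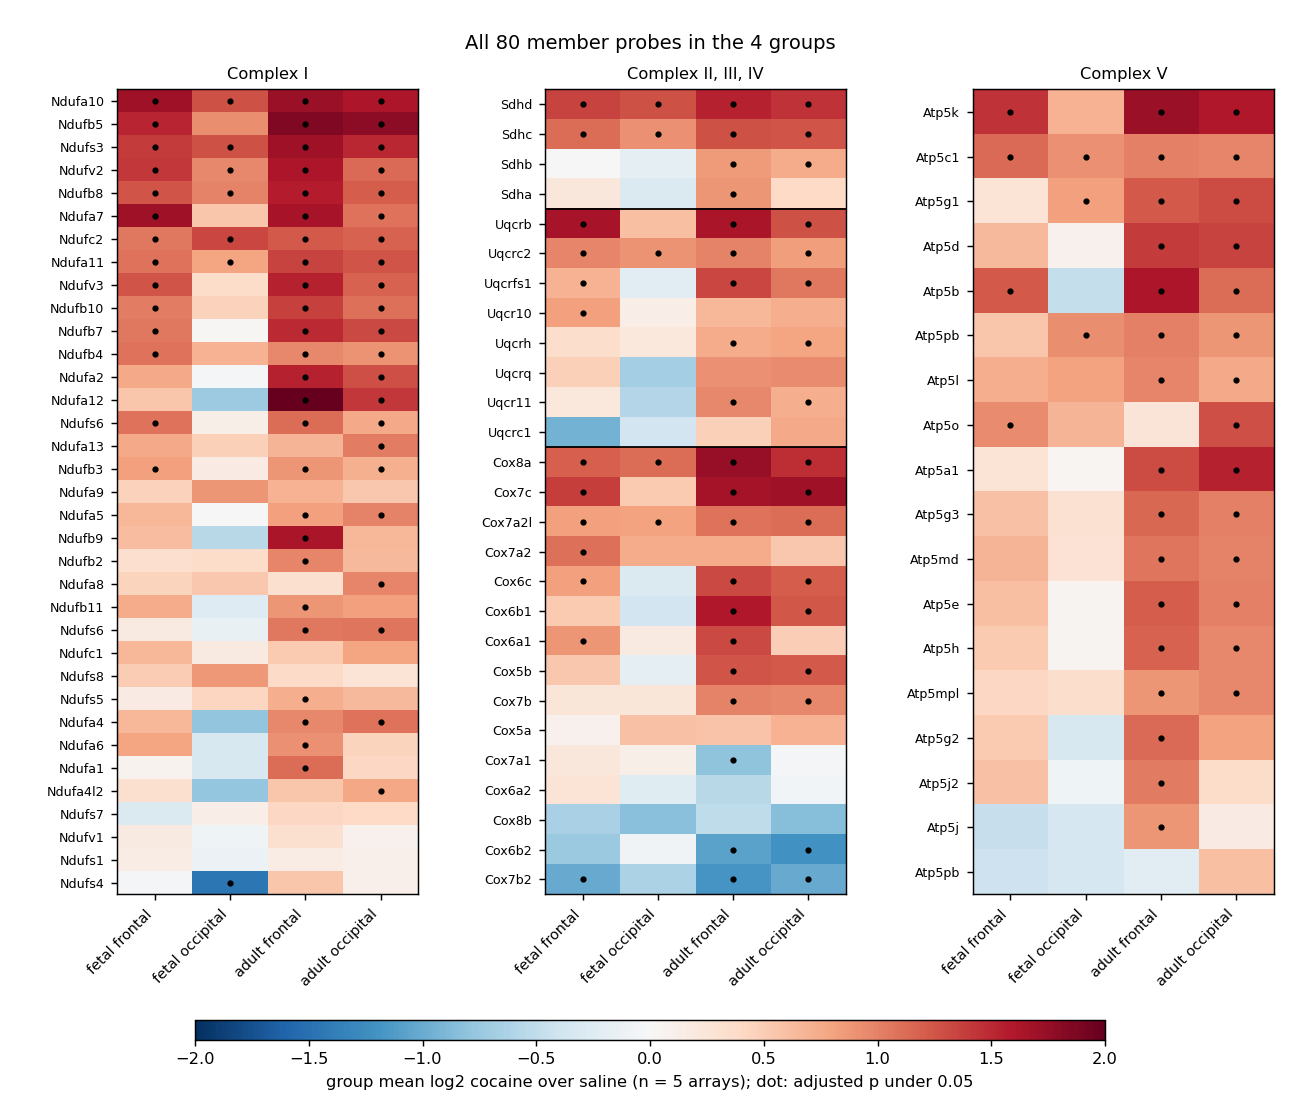
Group mean log2 ratio of cocaine over saline (n = 5 arrays a group) for all 80 probes, ordered within each complex by the mean of the 4 groups, with a dot where the limma adjusted p was under 0.05. Red cells with dots fill most of both adult columns, while the tissue isoforms at the foot of complex IV are mostly blue.

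Taken by complex, the medians were of similar size. In adult frontal cortex the median ratio was 0.98 for complex I, 1.07 for complex II, 0.94 for complex III, 0.99 for complex IV and 1.10 for complex V. In adult occipital cortex the same medians were 0.97, 1.00, 0.81, 0.70 and 0.98. All 5 complexes had a median above 0 on each of the 10 adult arrays and on each of the 5 fetal frontal arrays. In fetal occipital cortex the medians were 0.18, 0.36, -0.04, 0.11 and 0.19, and 1 array had a complex I median below 0. No complex had the highest median on more than 2 arrays of any group. The spread between arrays within a group, an SD of 0.16 to 0.61 for a complex median, was of the size of the gaps between complexes.

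**Figure D2:**
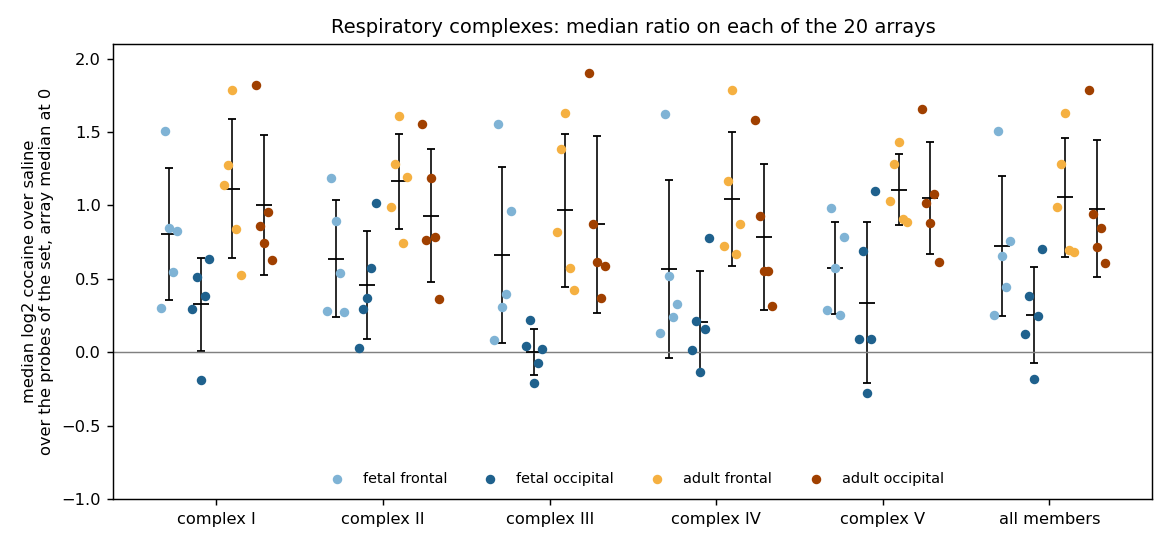
Median log2 ratio over the probes of each complex on each of the 20 arrays (points), with the mean and SD of the 5 arrays of a group (bars). The adult points lie above 0 for every complex, the fetal occipital points straddle 0 for complexes I, III, IV and V, and the complexes overlap within each group.

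Many other probes of like brightness were higher too. In the brightest of 5 equal classes of brightness, which held 38 of the 80, 34 were higher in adult frontal cortex and 29 in adult occipital cortex, where 71.8% and 63.7% of all probes of that class were higher. In fetal frontal cortex it was 21 of the 38 beside 57.7%, and in fetal occipital cortex 7 beside 25.2%. The next class held 21, of which 16, 13, 7 and 5 were higher in adult frontal, adult occipital, fetal frontal and fetal occipital cortex, beside 42.5%, 37.5%, 26.3% and 15.8%. In the middle class, with 17, the counts were 8, 8, 2 and 2 beside 16%, 14.6%, 7.7% and 8.3%. Set against the median of their own class, 55 of the 80 stood above it in adult frontal, 60 in adult occipital, 48 in fetal frontal and 38 in fetal occipital cortex.

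With the brightness trend removed from each array, the medians of the 80 probes became 0.24 in adult frontal, 0.27 in adult occipital, 0.09 in fetal frontal and -0.05 in fetal occipital cortex. Then 13 were higher and 3 lower in adult frontal cortex, beside 8.5% and 9.96% of all probes, and 9 higher and 1 lower in adult occipital cortex, beside 5.84% and 4.82%. Fetal frontal cortex had 2 higher and 2 lower beside 3.86% and 3.09%, and fetal occipital cortex 5 higher and 7 lower beside 5.62% and 10.9%. The probes higher in both adult groups after this step were those of Ndufa4l2, Ndufa5, Ndufc2, Cox8a, Atp5d, Atp5e and Atp5k. Complex V then had the highest adult medians, 0.31 in frontal and 0.49 in occipital cortex, and complex IV the lowest, -0.005 and 0.07. What gives rise to the trend with brightness was not tested.

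**Figure D3:**
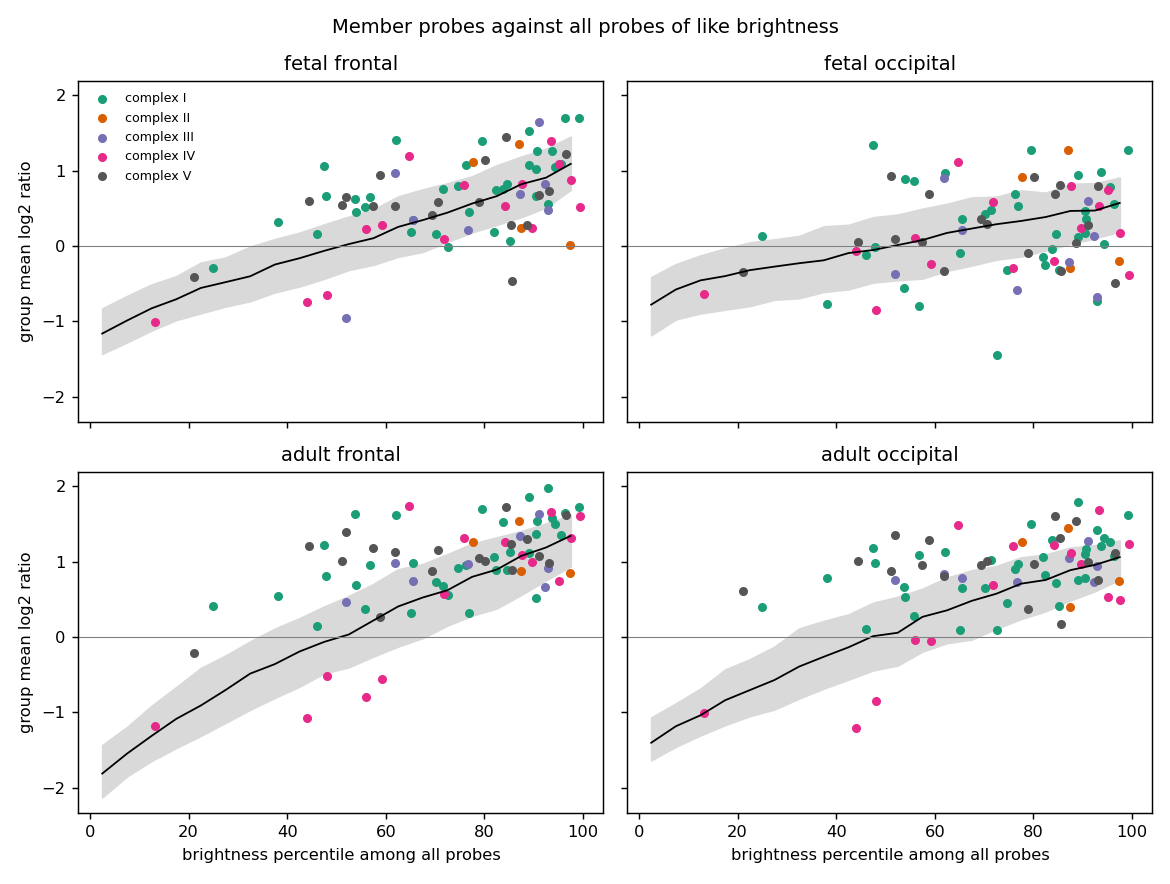
Group mean log2 ratio (vertical) against brightness percentile (horizontal) for the 80 probes, coloured by complex, over the median (line) and interquartile range (grey) of all probes in 20 bins of brightness. The line climbs with brightness in all 4 groups, and most members lie on or above it in the adult panels.

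The promoters of the gene with the highest mean ratio in each complex are shown because nuclear respiratory factor 1 (NRF1), ETS factors such as GABPA, and YY1 are known to bind near many of these genes. Each stretch is the 150 bases before the transcript start used in the promoter table, 5′ to 3′ on the gene's strand, from RefSeq on GRCm38.p6, with exact matches to the letters searched in capitals.
Ndufa10: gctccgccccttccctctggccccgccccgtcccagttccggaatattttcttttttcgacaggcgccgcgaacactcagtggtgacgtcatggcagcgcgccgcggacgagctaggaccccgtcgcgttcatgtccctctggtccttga
Sdhd: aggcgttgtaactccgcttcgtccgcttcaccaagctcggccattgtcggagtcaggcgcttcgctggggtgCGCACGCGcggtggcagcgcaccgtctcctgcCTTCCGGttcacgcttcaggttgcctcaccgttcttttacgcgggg
Uqcrfs1: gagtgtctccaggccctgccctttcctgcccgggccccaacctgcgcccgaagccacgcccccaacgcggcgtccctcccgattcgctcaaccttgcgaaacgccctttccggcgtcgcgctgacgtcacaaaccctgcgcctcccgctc
Cox8a: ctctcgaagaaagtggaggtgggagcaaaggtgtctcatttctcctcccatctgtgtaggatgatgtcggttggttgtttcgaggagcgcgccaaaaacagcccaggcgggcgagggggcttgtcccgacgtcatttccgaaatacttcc
Atp5k: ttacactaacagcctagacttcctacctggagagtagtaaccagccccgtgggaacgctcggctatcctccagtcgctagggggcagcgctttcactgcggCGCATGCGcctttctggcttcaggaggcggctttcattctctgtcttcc
They lie on the minus strand at chr1:92473759-92473908 (Ndufa10), chr9:50603850-50603999 (Sdhd), chr13:30545317-30545466 (Uqcrfs1), chr19:7217617-7217766 (Cox8a) and chr5:108434400-108434549 (Atp5k). RefSeq's gene span of Ndufa10 reaches further upstream, so that 67 of its 150 bases lie inside the annotated gene, while the other 4 stretches lie outside theirs. For complex III, Uqcrb and Uqcrc2 had higher ratios and no entry in the table. Sdhd holds the NRF1 letters CGCANGCG from 78 bases before the start and the ETS letters CCGGAAG, on the other strand, from 46 bases before it, and Atp5k holds the NRF1 letters from 49 bases before it. The other 3 stretches hold none of the letters searched. Over the 300 bases from 250 before to 50 after the start, on both strands, 26 of the 66 member genes with an entry (39.4%) held the NRF1 letters, against 12.5% of the 17492 protein-coding genes of the table. By complex it was 10 of 15 genes of complex V, 10 of 30 of complex I, 3 of 5 of complex III, 2 of 3 of complex II and 1 of 13 of complex IV. The ETS letters were in 16 of 66 (24.2%, against 12.9%) and the YY1 letters AAGATGGCG in 7 of 66 (10.6%, against 2.1%). These are matches of letters and say nothing of binding.

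Complex I was called higher at 25 of 35 probes in adult frontal cortex and 22 in adult occipital cortex, at 14 in fetal frontal and at 6 in fetal occipital cortex. Over all probes the shares higher were 26.8%, 24.1%, 18.7% and 10.5% in the same order. Taking out the brightness trend left 7, 3, 2 and 2 of the 35 higher, beside 8.5%, 5.84%, 3.86% and 5.62% of all probes. Ndufa10, an accessory subunit of the membrane arm, had the highest mean of the 4 groups. Its ratios on replicates 1 to 5 were 2.10, 2.56, 1.65, 0.67 and 1.51 in fetal frontal cortex and, on replicates 1, 1b, 3, 4 and 5, 1.38, 2.72, 1.17, 1.34 and -0.22 in fetal occipital cortex. In the adult they were 1.57, 1.31, 2.31, 0.85 and 2.57 in frontal and 2.45, 1.14, 2.13, 0.74 and 1.66 in occipital cortex. It was above 0 on 19 of 20 arrays, and the means were 1.70 ± 0.34, 1.28 ± 0.34, 1.72 ± 0.34 and 1.62 ± 0.34 (adjusted p = 0.000505, 0.00751, 0.000117 and 0.000681). It is also one of the brightest probes, at percentile 99.1, and with the brightness trend removed its adjusted p ran from 0.157 to 0.453. Without replicate 1b the fetal occipital mean was 0.92, with an adjusted p of 0.0694.

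Ndufb5, another accessory membrane subunit, read 1.93, 2.48, 1.02, 0.49 and 1.70 in fetal frontal and 0.93, -0.17, 1.65, 1.17 and 1.11 in fetal occipital cortex. The adult readings were 2.16, 1.17, 3.10, 0.004 and 2.86 in frontal and 2.76, 1.40, 1.70, 1.30 and 1.82 in occipital cortex. A single value, on fetal occipital replicate 1b, lay below 0. The means of 1.53 ± 0.35, 1.86 ± 0.35 and 1.80 ± 0.35 passed, and the fetal occipital mean of 0.94 ± 0.35 did not (adjusted p = 0.0507). After removal of the brightness trend none passed, and the 3 means were 0.67, 0.76 and 0.92 (adjusted p = 0.192, 0.0941 and 0.0651).

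The core subunits, which carry the flavin and iron-sulphur centres and are conserved from bacteria, had 2 of 6 measured (33.3%) higher in every group. Over all probes it was 26.8% in adult frontal, 24.1% in adult occipital, 18.7% in fetal frontal and 10.5% in fetal occipital cortex, so the adult share was near that of all probes. The 2 were Ndufs3 and Ndufv2, and Ndufs1, Ndufs7, Ndufs8 and Ndufv1 were higher in none. Once the brightness trend was removed 3 of the 6 were higher in adult frontal cortex, Ndufs7 among them at 1.19 (adjusted p = 0.0262), and none in adult occipital cortex. Of the 29 other complex I probes it was 4 and 3, and of all probes 8.5% and 5.84%. Ndufs3, whose product lies in the peripheral arm and whose values are given after they were seen, read 2.17, 1.14, 2.59, 0.39 and 2.19 in adult frontal cortex and 2.25, 1.17, 1.25, 1.27 and 1.58 in adult occipital cortex, and was above 0 on all 20 arrays. Its means were 1.70 ± 0.32 and 1.50 ± 0.32, and with the brightness trend removed 0.85 and 0.81 (adjusted p = 0.0362 and 0.0635). Ndufs1, which encodes the largest subunit, had group means from -0.11 to 0.16, and Ndufv1, the flavin-binding subunit, from -0.09 to 0.32. Their probes lay at brightness percentiles of 46.1 and 65.2, beside 79.5 for Ndufs3 and 62.1 for Ndufv2.

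Among accessory subunits the Ndufb genes had 9 of 9 probes higher in adult frontal cortex and 6 of 9 in adult occipital and in fetal frontal cortex. All probes had 26.8%, 24.1% and 18.7% higher in these 3 groups. The Ndufb probes had a median brightness percentile of 84.5. With the brightness trend removed 1, 0 and 0 were higher, beside 8.5%, 5.84% and 3.86% of all probes. Of the 13 Ndufa probes 9 were higher in adult frontal cortex and 10 in adult occipital cortex. Of the 8 Ndufs probes it was 4 and 3. Taking out the brightness trend left 2 and 2 of the Ndufa probes and 2 and 0 of the Ndufs probes higher, beside 8.5% and 5.84% of all probes. Both Ndufs6 probes were higher in both adult groups. Ndufa9, an accessory subunit of the peripheral arm, and Ndufc1 did not pass in any group, with means up to 0.89 and 0.78.

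Ndufs4, an accessory subunit whose loss causes a mitochondrial encephalopathy in mice, was the one complex I probe called lower, and only in fetal occipital cortex. There it read -2.03, -2.89, -0.75, -1.11 and -0.43, below 0 on all 5 arrays. In fetal frontal cortex it read 0.26, 0.008, -0.74, 0.042 and 0.34, and in the adult 1.11, 1.24, 0.23, 1.35 and -1.16 in frontal and 0.31, 0.20, -0.22, -0.33 and 0.52 in occipital cortex, on both sides of 0. The fetal occipital mean was -1.44 ± 0.33 (adjusted p = 0.00307), and the other means ran from -0.02 to 0.55 and did not pass. The mean was -0.17 with the position trend removed and -0.76 without replicates 1 and 1b, and neither passed. The direction held with the brightness trend removed, at -1.77.

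Complex II, the only one with no mitochondrially encoded subunit, had calls in all groups for its 2 membrane anchors and in the adult alone for its 2 catalytic subunits. Sdhd, a membrane anchor, read 0.58, 2.07, 1.49, 0.92 and 1.70 in fetal frontal and -0.024, 1.38, 0.92, 2.05 and 2.08 in fetal occipital cortex. It read 1.49, 1.35, 1.67, 0.89 and 2.28 in adult frontal cortex and 1.80, 1.48, 1.91, 0.82 and 1.22 in adult occipital cortex. It was below 0 on 1 of 20 arrays, and all 4 means passed, at 1.35 ± 0.30, 1.28 ± 0.30, 1.54 ± 0.30 and 1.44 ± 0.30. Without the brightness trend they were 0.55, 0.80, 0.50 and 0.60, of which only the fetal occipital one passed (adjusted p = 0.155, 0.0253, 0.148 and 0.105), and none did once the position trend was also taken out. Sdhc, the other anchor, read 1.10, 2.19, 1.36, 0.40 and 0.54 and -0.97, 0.80, 1.70, 0.98 and 2.06 in the fetal groups and 1.19, 1.22, 1.55, 0.64 and 1.73 and 2.60, 0.91, 1.31, 0.77 and 0.69 in the adult groups, frontal first. Its means were 1.12 ± 0.34, 0.91 ± 0.34, 1.27 ± 0.34 and 1.26 ± 0.34, all of which passed. With the brightness trend removed they were 0.53, 0.53, 0.47 and 0.60, and none passed (adjusted p = 0.271, 0.224, 0.283 and 0.198). Its fetal occipital call, with an adjusted p of 0.0485, was lost without replicate 1b, 3, 4 or 5, where the mean ran from 0.63 to 0.94, and its fetal frontal call without replicate 2, at 0.85.

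The 2 catalytic subunits had no call in the fetus. Sdha, the flavoprotein, read -0.010, 0.31, 0.43, 0.43 and 0.006 in fetal frontal and 0.16, -0.21, -0.97, 0.18 and -0.61 in fetal occipital cortex, with means of 0.23 ± 0.26 and -0.29 ± 0.26 that did not pass. In the adult it read 0.78, 0.99, 1.69, 0.28 and 0.67 in frontal and 0.63, 0.51, 1.06, -0.21 and 0.025 in occipital cortex. The adult frontal mean of 0.88 ± 0.26 passed, and the occipital mean of 0.40 ± 0.26 did not. After removal of the brightness trend the adult frontal mean was -0.17 and did not pass. Sdhb, the iron-sulphur subunit, read -0.17, -0.78, 0.38, 0.65 and -0.007 and 0.07, -0.37, -0.18, -0.48 and -0.025 in the fetal frontal and occipital groups, with means of 0.014 ± 0.26 and -0.20 ± 0.26. It read 0.18, 1.49, 1.14, 0.84 and 0.62 in adult frontal cortex and 1.31, 0.62, 0.93, 0.80 and 0.029 in adult occipital cortex, above 0 on all 10 arrays, and both means passed, at 0.85 ± 0.26 and 0.74 ± 0.26. Sdhb is a bright probe, at percentile 97.3, and with the brightness trend removed its adult means were -0.46 and -0.30 and its fetal frontal mean was -1.06 (adjusted p = 0.0283). Without adult frontal replicate 3 the Sdha mean was 0.68, with an adjusted p of 0.0519, and without adult occipital replicate 1, 3 or 4 that of Sdhb ran from 0.59 to 0.72 and did not pass.

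In complex III 5 of 8 probes were higher in each adult group, 4 in fetal frontal and 1 in fetal occipital cortex. Over all probes 26.8% were higher in adult frontal, 24.1% in adult occipital, 18.7% in fetal frontal and 10.5% in fetal occipital cortex. None of the 8 was higher in any group with the brightness trend removed, and 2 were lower in fetal occipital cortex, beside 10.9% of all probes. Uqcrb, the ubiquinone-binding subunit, read 1.44, 2.71, 1.60, 0.48 and 2.04 in fetal frontal and -0.17, 1.29, -0.12, 0.75 and 1.24 in fetal occipital cortex. It read 1.31, 1.37, 2.29, 0.90 and 2.29 in adult frontal cortex and 1.94, 1.28, 1.51, 1.04 and 0.62 in adult occipital cortex. It was below 0 on 2 fetal occipital arrays only, and the means were 1.65 ± 0.31, 0.60 ± 0.31, 1.63 ± 0.31 and 1.28 ± 0.31, with the fetal occipital one not passing (adjusted p = 0.149). Once the brightness trend was removed the other 3 were 0.75, 0.49 and 0.36 and did not pass either (adjusted p = 0.0501, 0.139 and 0.328).

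The 2 core proteins of complex III, which structurally resemble processing peptidases, were called differently, and the difference between them was not tested. Uqcrc2 read -0.08, 2.09, 1.29, 0.71 and 0.86 and 0.85, 0.86, 0.43, 1.02 and 1.34 in the fetal frontal and occipital groups and 0.83, 1.42, 1.62, 0.24 and 0.82 and 1.87, 0.93, 0.56, 0.18 and 0.63 in the adult ones. Its means lay between 0.83 and 0.99 with an SE of 0.29, and all 4 passed. Without the brightness trend none did, at 0.72, 0.69, 0.59 and 0.50 (adjusted p = 0.0894, 0.0678, 0.114 and 0.219). Uqcrc1 read -0.55, -0.82, -0.06, -3.50 and 0.17 and -1.66, 0.16, 0.22, -0.33 and -0.28 in the fetal and -0.015, 0.72, 1.72, 0.71 and -0.77 and 1.93, 0.57, 0.64, 0.16 and 0.52 in the adult groups, on both sides of 0 in each group except adult occipital cortex. None of its means passed, from -0.95 ± 0.39 in fetal frontal to 0.76 ± 0.39 in adult occipital cortex. Uqcrc2 lost its call in adult occipital cortex without replicate 1 (0.58) or replicate 2 (0.81), in fetal frontal cortex without replicate 2 (0.69) and in fetal occipital cortex without replicate 1b, 4 or 5 (0.79 to 0.91). The Rieske iron-sulphur protein gene Uqcrfs1 was higher in 3 groups, the hinge protein gene Uqcrh and Uqcr11 in both adult groups, and Uqcr10 in fetal frontal cortex, while Uqcrq passed in no group.

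Several small subunits of cytochrome c oxidase exist as a general form and a form typical of heart and skeletal muscle (Cox6a2, Cox7a1, Cox8b) or testis (Cox6b2, Cox7b2). Of 9 general subunits 7 were higher in adult frontal cortex and 6 in adult occipital cortex, 5 in fetal frontal and 1 in fetal occipital cortex, and none was lower. Of the 5 tissue isoforms among the 78 genes none was higher in any group, and 3 were lower in adult frontal, 2 in adult occipital and 1 in fetal frontal cortex. Over all probes 26.8% were higher and 29.4% lower in adult frontal and 24.1% and 24.1% in adult occipital cortex. In fetal frontal cortex it was 18.7% and 18.4%, and in fetal occipital cortex 10.5% and 14.2%. The general share in fetal occipital and the tissue share lower in fetal frontal cortex were near these. Cox4i2, a lung form of subunit IV that the symbol rule leaves out, was higher in both fetal groups, at 1.11 ± 0.35 in frontal and 1.58 ± 0.35 in occipital cortex, and is named after its values were seen. At an unadjusted p under 0.05 in limma, 3 of the 5 tissue isoforms differed from 0 in each adult group and 2 in each fetal group, beside 60.6% of all probes in adult frontal, 54.9% in adult occipital, 46.4% in fetal frontal and 38.3% in fetal occipital cortex. The median ratios were 1.31 and 1.20 for the general subunits and -0.80 and -0.85 for the tissue isoforms in adult frontal and occipital cortex. The general probes had a median brightness percentile of 89.7 and the tissue isoforms 48, and with the brightness trend removed the adult medians were 0.24 and 0.16 against -0.89 and -0.33. The fetal medians were then -0.20 for the general subunits and -0.22 for the tissue isoforms in frontal cortex, and -0.27 and -0.20 in occipital cortex. Before that step 2 of the 5 tissue isoforms had a mean above 0 in fetal frontal and 1 in fetal occipital cortex. The difference between general and tissue forms was not tested.

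Cox8a, the general form of subunit VIII, was above 0 on all 20 arrays. It read 1.02, 1.62, 1.27, 1.08 and 0.95 in fetal frontal and 0.53, 1.06, 0.50, 1.71 and 1.81 in fetal occipital cortex, and 1.87, 1.28, 2.90, 0.81 and 1.86 and 2.89, 1.58, 0.89, 1.07 and 0.99 in adult frontal and occipital cortex. Its means of 1.19 ± 0.31, 1.12 ± 0.31, 1.74 ± 0.31 and 1.48 ± 0.31 passed, and with the brightness trend removed the last 3 still did, at 0.88, 1.27 and 1.08 (adjusted p = 0.0312, 0.00305 and 0.0144). The fetal occipital call was lost without replicate 5 (0.95, adjusted p = 0.0557), with the position trend removed (0.57, adjusted p = 0.111) and with both trends removed (0.39, adjusted p = 0.313). Its muscle form Cox8b read -0.35, -0.82, -1.34, -0.33 and -0.41 and 1.17, -2.77, -0.997, -1.10 and -0.52 in the fetal and -0.27, -0.28, -0.89, 0.81 and -1.93 and -0.52, -0.87, -1.24, -0.81 and -0.80 in the adult groups. It was below 0 on 18 of 20 arrays, with means from -0.85 to -0.51 (SE 0.36) that did not pass.

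Cox7b2, the testis form of subunit VIIb, was below 0 on all 20 arrays. Its readings were -1.07, -0.96, -0.15, -2.09 and -0.74 in fetal frontal and -0.81, -0.54, -0.96, -0.12 and -0.75 in fetal occipital cortex, and -0.34, -1.93, -1.45, -1.48 and -0.73 and -0.82, -1.58, -0.83, -0.69 and -1.12 in adult frontal and occipital cortex. The means of -1.002 ± 0.28, -1.19 ± 0.28 and -1.01 ± 0.28 passed, and -0.64 ± 0.28 did not. Its probe was the dimmest of the 80, at percentile 13.3, and on 13 of 20 arrays its ratio was a quotient of whole numbers up to 20, beside a median of 3 arrays for the 80. A spot with equal numbers in both channels stood on this scale at a mean of -0.76 for adult frontal, -0.84 for adult occipital, -0.32 for fetal frontal and -0.15 for fetal occipital arrays. With the brightness trend removed its means ran from -0.22 to 0.07 and none passed. Cox7b, the general form, read -0.11, 0.32, 0.91, 0.13 and -0.028 and -0.37, -0.29, -0.13, 0.57 and 1.40 in the fetal groups, on both sides of 0, and 0.72, 1.37, 1.08, 0.67 and 1.12 and 1.83, 1.33, 0.59, 0.44 and 0.63 in the adult groups, all above 0. Its adult means of 0.99 ± 0.28 and 0.97 ± 0.28 passed, and its fetal means of 0.24 ± 0.28 and 0.24 ± 0.28 did not. After removal of the brightness trend the adult means were -0.12 and 0.07 and did not pass.

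Cox6b2, the testis form of subunit VIb, read -0.16, -0.06, -0.59, -1.85 and -1.03 in fetal frontal and 0.47, -1.27, 0.13, -0.44 and 0.78 in fetal occipital cortex. In the adult it read -1.19, -1.71, -1.16, -1.39 and 0.06 in frontal and -0.81, -1.32, -1.78, -0.87 and -1.26 in occipital cortex, below 0 on 9 of 10 arrays. The adult means of -1.08 ± 0.31 and -1.21 ± 0.31 were lower and remained so with the brightness trend removed, at -0.95 and -1.11 (adjusted p = 0.025 and 0.0171), while with both trends removed the frontal mean was -0.66 and did not pass (adjusted p = 0.0553). The fetal means of -0.74 ± 0.31 and -0.07 ± 0.31 did not pass. Cox6b1, the general form, read 1.19, 1.95, -1.28, 0.19 and 0.56 in fetal frontal cortex and 1.78, 1.48, 1.95, 1.32 and 1.47 and 1.78, 1.10, 1.85, 1.14 and 0.32 in adult frontal and occipital cortex. Its adult means were 1.60 ± 0.32 and 1.23 ± 0.32, both higher, and its fetal frontal mean of 0.52 ± 0.32 did not pass. Its probe was the brightest of the 80, at percentile 99.3, and with the brightness trend removed the adult means were 0.24 and 0.16 and did not pass.

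Cox7a1, the muscle form of subunit VIIa, read -0.70, -0.26, -2.54, -0.41 and -0.08 in adult frontal cortex, below 0 on all 5 arrays, with a mean of -0.80 ± 0.31 (adjusted p = 0.0277). Without replicate 3, the lowest of these, the mean was -0.36 and the adjusted p 0.331, and with the brightness trend removed it was -1.03 and passed (adjusted p = 0.0174). In the other groups it read 0.13, 1.47, -0.64, 0.58 and -0.42 in fetal frontal, 0.012, 0.09, 0.026, -0.07 and 0.51 in fetal occipital and -0.07, 0.25, 0.000, -0.36 and -0.028 in adult occipital cortex, with means from -0.04 to 0.22. Cox7a2, the general form, read 0.53, 2.04, 0.96, 0.75 and 1.20 and 1.38, 0.06, -0.006, 1.06 and 1.25 in the fetal and 0.17, 0.89, 1.32, 0.45 and 0.87 and 1.50, 0.98, -1.27, 1.31 and 0.16 in the adult groups. Its fetal frontal mean of 1.10 ± 0.33 passed, but not without replicate 2 (0.86, adjusted p = 0.076), and the others did not, at 0.54 to 0.75. Once the brightness trend was removed the fetal frontal mean of Cox7a2 was 0.08. Cox6a1, the general form of subunit VIa, read 0.49, 2.15, 0.62, 0.33 and 0.79 and 1.03, 1.12, -0.51, 0.002 and -0.75 in the fetal and 1.47, 1.20, 1.79, 0.57 and 1.55 and 0.33, 0.93, 0.46, 0.17 and 0.60 in the adult groups. It passed in fetal frontal (0.88 ± 0.30) and adult frontal cortex (1.31 ± 0.30), and without fetal frontal replicate 2 the fetal mean was 0.56 and did not pass. Without the brightness trend these means of Cox6a1 were -0.20 and -0.005 and did not pass. Its muscle form Cox6a2 read 0.10, 0.25, 0.28, 0.72 and 0.025 and -0.59, -1.43, 0.029, 0.26 and 0.54 in the fetal and -0.56, -0.98, -1.06, -0.21 and 0.008 and -0.24, -0.06, -0.57, 1.00 and -0.41 in the adult groups, with means from -0.56 to 0.27 that did not pass. With the brightness trend removed the adult frontal mean of Cox6a2 was -0.89 and passed (adjusted p = 0.0234).

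**Figure D4:**
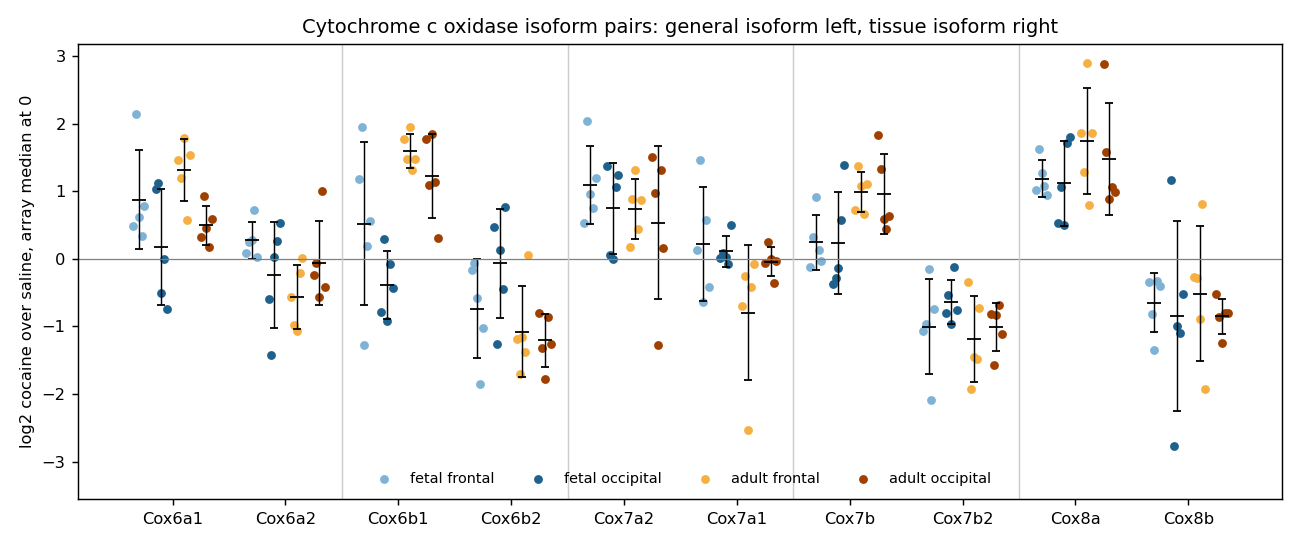
Log2 ratio of cocaine over saline on each array (points) for 5 pairs of general (left) and tissue (right) isoforms of cytochrome c oxidase subunits, with the mean and SD of the 5 arrays of a group. The Cox7b2 points are all below 0 and the Cox8a points all above 0, and in adult cortex the tissue form lies below the general form on average in each pair.

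Cox7c, a general subunit without a tissue form, was among the highest of complex IV. It read 1.26, 2.35, 0.52, 0.54 and 2.29 and -0.46, 1.82, -0.48, 0.59 and 1.18 in the fetal and 1.43, 1.87, 2.28, 1.20 and 1.53 and 3.36, 1.96, 1.20, 0.88 and 1.05 in the adult groups, below 0 on 2 fetal occipital arrays. The means of 1.39 ± 0.35, 1.66 ± 0.35 and 1.69 ± 0.35 passed, and 0.53 ± 0.35 did not. Its probe lay at brightness percentile 93.4, and with the brightness trend removed those 3 means were 0.42, 0.45 and 0.73 and did not pass (adjusted p = 0.384, 0.285 and 0.107). Cox7a2l, which takes part in joining complexes III and IV into supercomplexes, was higher in all 4 groups, with means from 0.80 to 1.12. Its probe lay at brightness percentile 87.6, and it passed in no group with the brightness trend removed. Its fetal frontal and occipital means were then 0.0017 and 0.32 (limma adjusted p = 0.998 and 0.409). Cox5a, a subunit of the matrix side, passed in no group, while Cox5b was higher in both adult groups.

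In complex V 16 of 18 probes were higher in adult frontal cortex and 14 in adult occipital cortex, beside 4 in fetal frontal and 3 in fetal occipital cortex. Over all probes the shares higher were 26.8%, 24.1%, 18.7% and 10.5% in the same order, and 22.2% of complex V in fetal frontal cortex was near its share. All 5 genes of the catalytic F1 head (Atp5a1, Atp5b, Atp5c1, Atp5d and Atp5e) were higher in both adult groups, with medians of 1.30 and 1.11. Of 3 genes for the proton-carrying c ring, Atp5g1, Atp5g2 and Atp5g3, 3 were higher in adult frontal cortex and 2 in adult occipital cortex. Of 5 stator probes, which hold the head still, it was 3 in each, and of the 5 other membrane subunits 5 and 4. After removal of the brightness trend 5 of the 18 were higher in each adult group, beside 8.5% of all probes in frontal and 5.84% in occipital cortex. The difference in share between complexes was not tested.

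Atp5k, a small membrane subunit linked to dimers of the enzyme, was above 0 on all 20 arrays. It read 1.46, 2.20, 1.09, 1.28 and 1.18 and 0.08, 1.04, 0.034, 0.53 and 1.76 in the fetal frontal and occipital groups. The adult frontal readings were 1.79, 1.79, 1.69, 1.08 and 2.26, and the adult occipital ones 1.96, 1.00, 2.60, 1.81 and 0.66. The means were 1.44 ± 0.29, 0.69 ± 0.29, 1.72 ± 0.29 and 1.61 ± 0.29, all passing except the fetal occipital one (adjusted p = 0.0818). Once the brightness trend was removed the fetal frontal mean was 0.71 and did not pass (adjusted p = 0.0636), and both adult means passed, at 0.75 and 0.82 (adjusted p = 0.0269 and 0.0265).

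Atp5c1, the gamma subunit that turns inside the head, was the one complex V gene higher in all 4 groups. It read 1.39, 2.30, 0.90, 0.44 and 0.66 and 0.87, 0.92, 0.73, 0.12 and 1.93 in the fetal and 0.50, 1.15, 2.23, -0.09 and 1.27 and 2.40, 0.32, 0.37, 0.63 and 1.15 in the adult groups, below 0 on 1 array. Its means ran from 0.91 to 1.14 with an SE of 0.33, and with the brightness trend removed they were 0.49, 0.50, 0.15 and 0.26, of which none passed (adjusted p = 0.299, 0.238, 0.761 and 0.596). Each of the 4 calls was lost without 1 array, namely fetal frontal replicate 2 (0.85), adult frontal replicate 3 (0.71), adult occipital replicate 1 (0.62), and fetal occipital replicate 1, 1b, 3 or 5 (0.66 to 0.96).

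The 2 probes of Atp5pb, a stator subunit, disagreed. Probe 12164 read -0.98, 0.12, -0.49, 0.20 and -0.91 and -0.49, -0.14, 0.24, 0.05 and -1.38 in the fetal and 0.43, -0.995, 0.72, -0.82 and -0.36 and -0.32, 0.56, 1.36, 1.27 and 0.18 in the adult groups, on both sides of 0 in each group, and none of its means passed. Probe 12059 had means from 0.55 to 1.02 and was higher in all groups but fetal frontal. Their brightness percentiles were 21.2 and 51.1, and with the brightness trend removed probe 12164 had an adult occipital mean of 1.35 (adjusted p = 0.00785).

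Differences between ages were tested directly. In occipital cortex 6 of the 80 probes had a higher ratio in the adult than in the fetus and none a lower one, beside 2.51% and 1.09% of all probes. At an unadjusted p under 0.05 it was 28 of the 80, beside 25.8% of all probes. Between the frontal groups no member differed by age, where 0.00443% of probes were higher and 0.0222% lower in the adult, and 12 members had an unadjusted p under 0.05, beside 14.1% of all probes. Between fetal occipital and fetal frontal cortex no member differed, beside 0% and 0.0222%, with 14 members at an unadjusted p under 0.05, beside 15.5% of all probes. Between the adult regions no probe differed in either direction (0% and 0%), with 2 members at an unadjusted p under 0.05, beside 2.71%.

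The 6 were Ndufa12, Ndufa4, Ndufa4l2, Cox6b1, Cox6c and Atp5b, of which Atp5b is named after its values were seen. Ndufa12, an accessory subunit of the peripheral arm, read -0.52, -3.47, -0.45, -0.11 and 0.89 in fetal and 1.69, 1.10, 1.62, 2.07 and 0.62 in adult occipital cortex, and the difference was 2.15 ± 0.55 (adjusted p = 0.0315). Ndufa4, now placed with cytochrome c oxidase in mammals, read -0.17, -0.85, -3.63, -0.11 and 0.77 and then 2.54, 0.97, 0.68, 1.16 and 0.10, a difference of 1.88 ± 0.55 (adjusted p = 0.0477). In each gene 1 fetal occipital array lay far below the others, replicate 1b for Ndufa12 and replicate 3 for Ndufa4, and 1 fetal array lay within the adult range.

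Ndufa4l2, a relative of Ndufa4 induced by low oxygen, read -1.07, -1.96, -0.21, -0.039 and -0.57 in fetal and 0.13, 0.12, 1.41, 1.44 and 0.80 in adult occipital cortex, a difference of 1.55 ± 0.41 (adjusted p = 0.0371). Every fetal value lay below 0 and every adult value above it. Cox6b1 read -0.79, 0.30, -0.92, -0.08 and -0.43 and then 1.78, 1.10, 1.85, 1.14 and 0.32, a difference of 1.62 ± 0.45 (adjusted p = 0.0436). Its highest fetal value of 0.30 lay just below its lowest adult value of 0.32. Cox6c, a general subunit, read -0.51, 0.38, -1.02, 0.16 and -0.44 and then 1.58, 0.91, 1.78, 1.37 and 0.38, a difference of 1.49 ± 0.41 (adjusted p = 0.0397), with the highest fetal and the lowest adult value equal. These genes were picked by the same contrast, so the separation of their values is not a further test of it.

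Atp5b, the catalytic beta subunit of the ATP synthase, read -1.36, -1.74, -0.33, -0.22 and 1.23 in fetal and 1.87, 0.80, 1.47, 0.80 and 0.61 in adult occipital cortex, a difference of 1.59 ± 0.46 (adjusted p = 0.0484). Fetal replicate 5 lay within the adult range. In frontal cortex Atp5b read 2.23, 1.88, 0.85, 0.20 and 0.96 in the fetus and 1.57, 1.92, 1.41, 1.52 and 1.69 in the adult, all above 0, with means of 1.22 ± 0.33 and 1.62 ± 0.33 that passed, but not with the brightness trend removed (0.18 and 0.34). Ndufa12 had frontal readings of 0.44, 1.50, 0.82, -0.91 and 0.91 and 1.75, 1.74, 2.76, 1.91 and 1.77, with means of 0.55 ± 0.39 and 1.98 ± 0.39. Frontal means in the fetus and the adult were 0.66 ± 0.39 and 0.96 ± 0.39 for Ndufa4, 0.32 ± 0.29 and 0.55 ± 0.29 for Ndufa4l2 and 0.82 ± 0.29 and 1.32 ± 0.29 for Cox6c. The count of 6 fell to 0 without fetal occipital replicate 1, adult occipital replicate 3 or adult occipital replicate 4, to 1 without adult occipital replicate 1 or 2, and to 2 or 3 without fetal occipital replicate 1b, 3 or 4. Without the brightness trend 2 passed, Ndufa4l2 at 1.71 and Cox6c at 1.23, beside 2.38% of all probes.

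**Figure D5:**
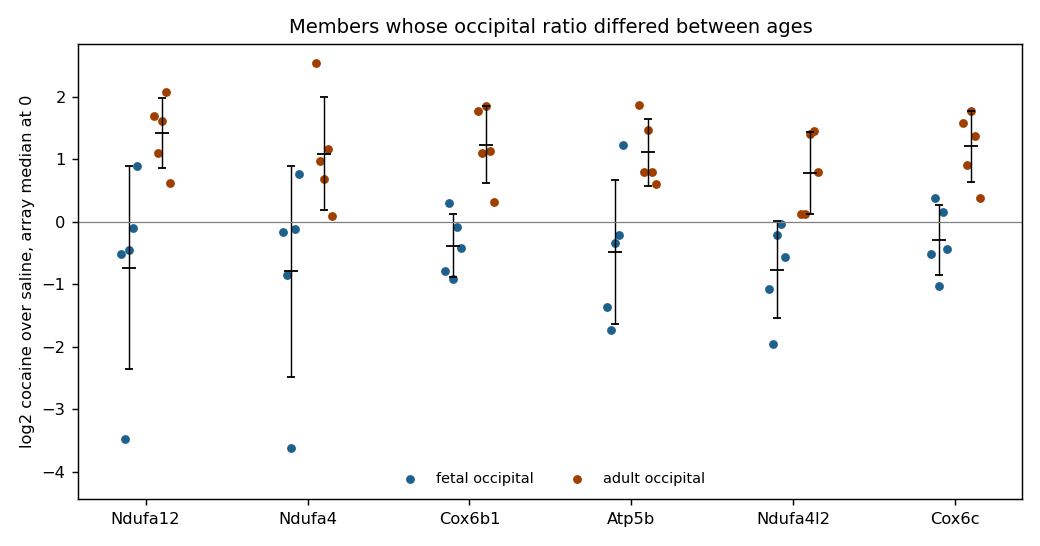
Log2 ratio of cocaine over saline on each fetal occipital and adult occipital array (points) for the 6 members whose ratio differed between these groups, with the mean and SD of 5 arrays. Adult points lie above 0 for all 6 genes, while most fetal points lie below it.

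Other genes of energy metabolism were read beside the 78. Over all probes 26.8% were higher and 29.4% lower in adult frontal and 24.1% and 24.1% in adult occipital cortex. In fetal frontal cortex it was 18.7% and 18.4%, and in fetal occipital cortex 10.5% and 14.2%. The enzymes of the citrate cycle and pyruvate dehydrogenase had 9 of 16 probes higher and none lower in each adult group, 5 higher in fetal frontal cortex, and 2 higher and 1 lower in fetal occipital cortex. Their medians were 1.02 in adult frontal, 0.93 in adult occipital, 0.41 in fetal frontal and 0.27 in fetal occipital cortex. Suclg1, a subunit of succinyl-CoA ligase, had an adult frontal mean of 1.80 ± 0.31 (limma adjusted p = 3.12e-05), and Dlat, the acetyltransferase of pyruvate dehydrogenase, an adult occipital mean of 1.78 ± 0.31 (adjusted p = 0.000222). With the brightness trend removed these means were 0.59 and 1.53, and the list had 0 higher and 1 lower in adult frontal and 1 higher and 0 lower in adult occipital cortex. Genes for mitochondrial import and porins had 14 of 27 probes higher in adult frontal, 10 in adult occipital, 10 in fetal frontal and 5 in fetal occipital cortex, with 1 lower in each group. After removal of the brightness trend it was 1, 2, 1 and 0 higher and 1, 0, 1 and 4 lower in the same order. All probes then had 8.5%, 5.84%, 3.86% and 5.62% higher and 9.96%, 4.82%, 3.09% and 10.9% lower.

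Subunits and electron carriers outside the symbol rule, 11 probes for 10 genes, had 7 higher and 3 lower in adult frontal and 6 higher and 2 lower in adult occipital cortex. In the fetus it was 3 higher and 2 lower in frontal cortex and 3 higher in occipital cortex. All probes had 26.8% higher and 29.4% lower in adult frontal and 24.1% and 24.1% in adult occipital cortex. They had 18.7% and 18.4% in fetal frontal and 10.5% and 14.2% in fetal occipital cortex. Atpif1, the inhibitor of the ATP synthase, had an adult frontal mean of 1.53 ± 0.27 (limma adjusted p = 4.58e-05), and Etfb, a subunit of the electron transfer flavoprotein, one of 1.59 ± 0.31 (adjusted p = 0.000114). Etfb was higher in all 4 groups. Once the brightness trend was removed these means were 0.17 for Atpif1 and 1.48 for Etfb, and 1 probe of the list was higher and none lower in each adult group.

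Assembly factors, which build the complexes without staying in them, had 42 probes. Of these 15 were higher and 11 lower in adult frontal, 12 and 10 in adult occipital, 11 and 8 in fetal frontal and 5 and 4 in fetal occipital cortex, beside the 26.8% and 29.4%, 24.1% and 24.1%, 18.7% and 18.4%, and 10.5% and 14.2% of all probes. Uqcc2, an assembly factor of complex III, had an adult frontal mean of 2.01 ± 0.31 (limma adjusted p = 1.01e-05), and probe 11836 of Cox17, a copper chaperone of complex IV, one of 2.11 ± 0.35 (adjusted p = 2.68e-05). Without the brightness trend these means were 1.05 and 1.19, and the list had 7 higher and 5 lower in adult frontal and 6 and 1 in adult occipital cortex. Over all probes it was then 8.5% and 9.96% in adult frontal and 5.84% and 4.82% in adult occipital cortex.

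Regulators of mitochondrial biogenesis had 1 of 21 probes higher and 6 lower in each adult group, 3 and 3 in fetal frontal and 2 and 3 in fetal occipital cortex. The adult share lower was near that of all probes, 29.4% in frontal and 24.1% in occipital cortex. The adult share higher was 4.8%, beside 26.8% and 24.1% of all probes. In the fetus all probes had 18.7% higher and 18.4% lower in frontal and 10.5% and 14.2% in occipital cortex. With the brightness trend removed 2 were higher and 3 lower in adult frontal and 2 and 2 in adult occipital cortex. Gabpb2, a partner of GABPA, had an adult frontal mean of -2.39 ± 0.35 (limma adjusted p = 6.12e-06) at a brightness percentile of 3.9, and Polrmt, the mitochondrial RNA polymerase, one of -1.33 ± 0.26 (adjusted p = 0.000134) at 10.4. With the brightness trend removed these means were -0.72 and 0.05. Tfam, which packages and transcribes mitochondrial DNA and is named after its values were seen, was higher in all 4 groups, with means of 1.29 ± 0.26 and 0.92 ± 0.26 in the fetal frontal and occipital groups and 1.27 ± 0.26 and 1.08 ± 0.26 in the adult ones. It was the only probe of the 21 higher in either adult group. Its brightness percentile and its means with the brightness trend removed are not given here.

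Cell type markers were called in the same groups. Over all probes 26.8% were higher in adult frontal, 24.1% in adult occipital, 18.7% in fetal frontal and 10.5% in fetal occipital cortex. The shares lower were 29.4%, 24.1%, 18.4% and 14.2% in the same order. Of 12 neuronal probes 10 were higher in adult frontal, 8 in adult occipital and 2 in each fetal group, with 1 lower in fetal occipital cortex. Astrocyte markers had 7, 5, 2 and 0 of 12 higher in adult frontal, adult occipital, fetal frontal and fetal occipital cortex, and 1 and 2 lower in the fetal groups. Oligodendrocyte markers had 6, 6, 5 and 1 of 8 higher, with 1 lower in each fetal group, and microglial markers 4, 2, 2 and 1 of 8, with none lower. In adult frontal cortex 4 neuronal, 6 astrocyte, 4 oligodendrocyte and 2 microglial probes were higher with the brightness trend removed, beside 8.5% of all probes. Adult occipital cortex then had 3, 3, 3 and 0, beside 5.84%, and none was lower in either. The adult frontal medians were then 0.59, 0.84, 0.79 and 0.66, beside 0.24 for the 80 probes. Erythroid markers had 2 of 7 higher and 5 lower in adult frontal cortex, 2 and 4 in adult occipital, 2 and 2 in fetal frontal and 0 and 1 in fetal occipital cortex. Muscle markers, in the same order, had 4 of 11 higher and 4 lower, 3 and 3, 2 and 3, and 1 and 1. Endothelial markers had at most 1 of 7 higher and 2 lower in a group, meningeal markers at most 2 of 5 higher and 2 lower, and neural progenitor markers at most 1 of 8 higher and 3 lower. No erythroid, endothelial or progenitor probe was higher in either adult group with the brightness trend removed. Vacuolar ATPase genes, a proton pump outside mitochondria, had 17, 11, 8 and 3 of 24 higher and 5, 4, 3 and 2 lower. Olfactory and vomeronasal receptors, most of them silent in cortex, had 452 of 922 probes lower and 126 higher in adult frontal cortex. The part of these in the ratios of the 78 genes was not tested, and since the values are ratios the level of no marker could be checked.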

How the data were processed

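The deposited values are log2 ratios of 2 channels, 1 column an array, with cocaine RNA in channel 1 and saline RNA in channel 2 per the labels. That they are on a log2 scale, and that they run cocaine over saline, was inferred and is not stated. Normalization, image software and scanner were not given in the sources used. Spot intensities were not analysed here, which leaves signal over background unknown, and 5 arrays a group limit the precision. Array medians ran from -0.261 to 0.316. The median of every array was subtracted from it, and its highest value, shared by 6 to 27 probes, was set missing. Probe names came from the platform annotation, with 18218 probes of 1 symbol, 16 of several and 4341 of none.

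The ratios of all arrays were fitted in limma 3.58.1 (R 4.3.3) with a mean for each group, over the 22567 probes that had 3 or more values in all groups. Group means against 0 and differences between groups were tested by its moderated test, two-sided, at a Benjamini-Hochberg adjusted p under 0.05. Fitted to simulated ratios with known shifts and independent noise for each probe, the procedure was checked before use. That simulation held no trend with brightness or position, so it says nothing of how such trends affect the calls. Brightness was scored from the ratios, and the trends with it and with position on the array were removed by loess (spans of 0.3 and 0.05) as alternatives. Other alternatives changed centring, scaling, missing values, array weights, the arrays fitted and the replicate block. Tables and figures were made in Python 3.11.15. Values on every array were given for the 2 highest and 1 lowest gene by mean of the 4 groups in complexes I, III, IV and V, every Sdh gene, members called lower, the 5 members with the smallest p in a difference and the isoform pairs, and from other lists up to 2 genes with the smallest p. The members and lists were chosen with earlier results of these data known.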

Additional observations from a re-analysis of the deposited data

Results flagged for a closer look

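Of 136 sets of 5 arrays examined, 10 had 1 array far from the other 4, with a gap of over 0.71 of the whole range, a distance that chance gives in about 1 of 20 sets. On adult occipital replicate 1 the median of all 80 probes was 1.79 and that of complex I was 1.82, both the highest of their group. On fetal frontal replicate 2 the median of complex IV was 1.62 and Cox6a1 was at 2.15. Uqcrc1, a core protein of complex III, had such an array in 3 groups, at -3.50 on fetal frontal replicate 4, -1.66 on fetal occipital replicate 1 and 1.93 on adult occipital replicate 1. Cox7a1 was at -2.54 on adult frontal replicate 3 and at 0.51 on fetal occipital replicate 5, and Ndufa12 was at 2.76 on adult frontal replicate 3.

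For 6 genes the ratio differed between adult and fetal occipital cortex by limma's test of the difference, by 2.15 for Ndufa12, 1.88 for Ndufa4, 1.55 for Ndufa4l2, 1.62 for Cox6b1, 1.49 for Cox6c and 1.59 for Atp5b.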

How the results depend on the processing

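Removing the brightness trend, alone and then together with the position trend, moved most values, and the cause was not tested. Probes higher became 2 and 5 in fetal frontal, 5 and 1 in fetal occipital cortex, and in the adult 13 and 14 in frontal and 9 and 14 in occipital cortex. Probes lower became 2 and 4 in fetal frontal, 7 and 2 in fetal occipital and 1 and 1 in adult occipital cortex. The 6 differences between the occipital groups became 2 and 0. The median of all members became 0.087 and 0.11 in fetal frontal, 0.24 and 0.26 in adult frontal and 0.27 and 0.23 in adult occipital cortex. Complex I became 0.23 and 0.14, 0.27 and 0.33, and 0.27 and 0.24 in these 3 groups, and complex V 0.18 and 0.23, 0.31 and 0.39, and 0.49 and 0.36. Complex II became -0.025 and -0.15, 0.15 and -0.040, and 0.15 and 0.016, and was -0.12 in fetal occipital cortex with brightness alone removed. Complex III became -0.12 and -0.062 in fetal frontal, -0.42 and -0.31 in fetal occipital and 0.27 and 0.20 in adult frontal cortex, and 0.14 in adult occipital cortex with both removed. Complex IV became -0.20 and -0.24, -0.0045 and -0.091, and 0.074 and -0.13 in fetal frontal, adult frontal and adult occipital cortex.

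Single genes turned in direction under the same steps. Sdha in adult frontal cortex became -0.17 and -0.45. Sdhb became -1.06 and -1.05 in fetal frontal, -0.46 and -0.50 in adult frontal and -0.30 and -0.45 in adult occipital cortex. Cox6a1 became -0.20 and -0.44 in fetal frontal and -0.0045 and -0.091 in adult frontal cortex. With both removed Cox6b1 became -0.71 in fetal frontal, -0.027 in adult frontal cortex and -0.14 in adult occipital cortex, and Atp5c1 -0.065 in fetal occipital cortex. With brightness alone removed Cox7b became -0.12 and Cox7b2 0.072 in adult frontal cortex.

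Other settings moved the counts, for causes not tested. In fetal frontal cortex probes lower were 3 with no centring, 2 with equal spread, quantile normalization, array weights or the position trend removed, and 0 with replicate 1 turned in sign, where probes higher were also 0. In fetal occipital cortex probes higher were 7 with that array turned, 3 with the position trend removed, 6 without replicates 1 and 1b together and 0 with only its own arrays in the fit. Its probes lower were 3 with no centring, equal spread, quantile normalization or array weights, 2 with probes averaged per gene, and 0 with the position trend removed or only its own arrays in the fit. Between the fetal regions 1 probe differed with equal spread or quantile normalization. Between the occipital groups the 6 became 12 with no centring, 16 with quantile normalization, 19 with array weights, 3 with maxima kept, 0 with fetal frontal replicate 1 turned, 2 with the position trend removed, 1 without fetal occipital replicates 1 and 1b and 2 with only the arrays compared.

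The replicate block by title number took the 6 to 0. Whether the numbers pair the arrays could not be decided, since a low correlation does not exclude shared litters. Correlations of 30 same-number pairs ran from -0.13 to 0.38, 7 of them over 0.1. Their median was 0.025, beside -0.0089 for other pairs, and 3 of 20 arrays matched their own number best. Leaving out 1 array at a time, probes higher ran from 16 to 33 in fetal frontal, 4 to 15 in fetal occipital cortex, and in the adult from 46 to 61 in frontal and 37 to 52 in occipital cortex, and probes lower from 0 to 2, 1 to 3, 2 to 3 and 2 to 2. Differing probes ran from 0 to 1 between the fetal regions and 0 to 6 between the occipital groups. Over all results and settings 2509 of the recomputed values kept their direction and side of the threshold, moved by less than the spread or were counts not classed as moved. Such counts could still change, as for probes higher in adult frontal cortex, which were 58 with all arrays and 46 at the lowest. Of the other values 241 lost a call, 57 gained one, 166 moved otherwise and 18 turned.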
